A study of Mus musculus with 16 samples.

Results

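The expression of 10 genes that encode granule and alarmin proteins of neutrophils was followed in the dorsal root ganglia (DRG) of 16 mice. The genes were S100a8, S100a9, Chil3, Ngp, Ltf, Camp, Lcn2, Mmp8, Mmp9 and Retnlg. They were found by symbol among the 52636 genes in the count files, and 10 of 10 passed the filter on low counts that left 21371 genes to test. The genes had been put together with the SNI-DMI versus SNI-Saline comparison known, where Chil3 and S100a8 had been named as lower. The set was thus chosen by measured levels that include these 8 libraries, and its values in that comparison are a description with no test.

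The study asked how desipramine (DMI), a tricyclic antidepressant that blocks noradrenaline reuptake, changes gene expression in the DRG after nerve injury. Male C57Bl6/J mice aged 3 to 4 months received spared nerve injury (SNI), in which the common peroneal and sural branches of the sciatic nerve are tied and cut, or sham surgery. They were then injected intraperitoneally 2 times a day for 3 weeks with 15 mg/kg DMI in saline or with saline alone. Surgery and injection together gave the groups Sham-Saline, Sham-DMI, SNI-Saline and SNI-DMI, with 4 mice each and 1 mouse per library, and all mice carried the wild-type genome of the strain. The injections began 4 weeks after surgery by the study's results and 4 months after it by its methods.

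The labels give spinal cord as the tissue and dorsal root ganglia as the cell type. Markers of sensory neurons were high (Avil at a mean of 927 CPM, reads per 1000000 reads on genes, and Scn10a at 1160 CPM), and of 10 genes on the spinal cord list Lbx1, Mnx1, Chat and Olig2 lay at means of 0.0153 to 0.0359 CPM. Slc17a6 (250 CPM), Aqp4 (10.6), Gfap (3.43) and Pax2 (1.56) of the same list were not low. Reads on genes ran from 41194238 to 73920332 per library. The injury marker Atf3 was higher in both comparisons of SNI with sham mice (log2 fold change 2.32 with saline and 1.70 with DMI). Of 5 such markers, 5 were also higher in Sham-DMI than in Sham-Saline. At an edgeR adjusted p under 0.1, 4 passed, beside 11.6% of all genes higher. The log2 fold changes were 2.46 for Sprr1a, 2.23 for Npy, 1.24 for Ecel1 and 0.69 for Atf3, and 0.38 for Gal, which did not pass. The library numbers in the labels run from 17 to 24 for DMI and from 33 to 40 for saline, and each of the 4 groups holds its own run of numbers. What the numbers stand for is not stated, and whatever they mark cannot be told apart from DMI or, within a treatment, from surgery.

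Neutrophils are short-lived white blood cells that are made in the bone marrow and carry ready-made proteins in granules. The proteins are packed in the order in which their genes are switched on as the cell matures. Azurophil granules with myeloperoxidase and elastase come first, then specific granules with lactoferrin, cathelicidin and lipocalin, and last gelatinase granules with MMP9. S100A8 and S100A9 fill the cytosol instead, and on release their complex, calprotectin, acts as an alarmin on receptors such as TLR4 and RAGE. In a DRG, neutrophils lie in blood vessels and coverings or enter the tissue after damage. Counts from whole ganglia cannot tell fewer such cells from less RNA per cell.

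Several of the genes lie close to each other in the genome (mm10, also called GRCm38). S100a8 (chr3:90668978-90670035, plus strand) and S100a9 (chr3:90692632-90695721, minus strand) are separated by 22.6 kb. Camp (chr9:109847379-109849617, minus strand) and Ngp (chr9:110419747-110423012, plus strand) are 570.1 kb apart, and Ltf (chr9:111019271-111042767, plus strand) follows 596.3 kb after Ngp. Mmp8 (chr9:7558456-7568485, plus strand) is elsewhere on the same chromosome. Chil3 (chr3:106147554-106167564, minus strand) is farther along the chromosome of the S100 genes. Lcn2 (chr2:32384633-32388252, minus strand) and Mmp9 (chr2:164940780-164955850, plus strand) share a chromosome, and Retnlg (chr16:48872621-48874496, plus strand) is alone on its own. No other annotated gene overlaps any of the 10.

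Because the genes moved together across mice, the sequence before their starts was searched for 3 motifs on both strands, in the 250 bases before the RefSeq start of 9 of the genes. The motif TTGCNNAA of C/EBP factors, which drive granule genes in maturing neutrophils, was in 6 of 9 (Lcn2, S100a9, Mmp8, Ngp, Ltf and Retnlg) and in 9.56% of 32851 windows of all genes. The motif GAGGAAGT of PU.1, a factor of all myeloid cells, was in 2 of 9 (S100a8 and Mmp8) and in 2.44% of all windows. TATAAA, the TATA box, was in 1 of 9 (S100a8) and in 12.4% of all windows. A match describes letters only, and binding was not measured. The sequences below belong to the neighbours S100a8 and S100a9 and to the specific granule genes Ngp and Ltf, from RefSeq on GRCm38.p6, 5′ to 3′ on the strand of each gene and cut where the GENCODE gene begins. They span chr3:90668821-90668977 (plus strand), chr3:90695722-90695971 (minus), chr9:110419558-110419746 (plus) and chr9:111019042-111019270 (plus). Capitals mark the PU.1 match in S100a8 and 1 C/EBP match in each of the other 3. The TATA box of S100a8 and a further C/EBP match of Ngp lie in the stretch that was cut off.
S100a8: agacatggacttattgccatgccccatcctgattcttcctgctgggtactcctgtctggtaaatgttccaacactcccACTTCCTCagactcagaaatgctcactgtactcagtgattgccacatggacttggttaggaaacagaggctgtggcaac
S100a9: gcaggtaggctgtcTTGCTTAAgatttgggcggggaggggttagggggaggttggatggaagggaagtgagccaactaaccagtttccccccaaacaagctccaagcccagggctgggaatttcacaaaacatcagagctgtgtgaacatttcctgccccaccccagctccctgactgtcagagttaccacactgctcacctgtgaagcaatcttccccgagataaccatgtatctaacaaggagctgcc
Ngp: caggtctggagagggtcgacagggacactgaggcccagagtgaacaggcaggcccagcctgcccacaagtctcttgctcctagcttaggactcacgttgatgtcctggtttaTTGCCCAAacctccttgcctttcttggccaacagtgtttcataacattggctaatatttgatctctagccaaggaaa
Ltf: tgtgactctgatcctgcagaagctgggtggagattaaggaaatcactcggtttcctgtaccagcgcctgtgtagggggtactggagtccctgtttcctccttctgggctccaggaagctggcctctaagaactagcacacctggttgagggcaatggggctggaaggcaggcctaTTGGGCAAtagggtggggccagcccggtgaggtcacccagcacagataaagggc

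All 10 genes were rare in the DRG, with 1 to 1001 reads per library. Per kilobase of exon, S100a9 was the highest (mean over 16 mice of 11.6 CPM per kb) and S100a8 came next (5.39 CPM per kb), and this order held in 16 of 16 mice. Ngp (2.91 CPM per kb) and Camp (2.79 CPM per kb) followed and could not be ordered, since Ngp was above Camp in 9 of 16 mice. Retnlg lay at a mean of 1.08 CPM per kb. Ltf (0.658) and Lcn2 (0.618) were close on the same scale, with Ltf above Lcn2 in 9 of 16 mice. Chil3 (0.503) and Mmp9 (0.419) were also close, with Chil3 higher in 10 of 16. Mmp8, neutrophil collagenase, was last in 16 of 16 mice with 0.126 CPM per kb.

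**Figure D1:**
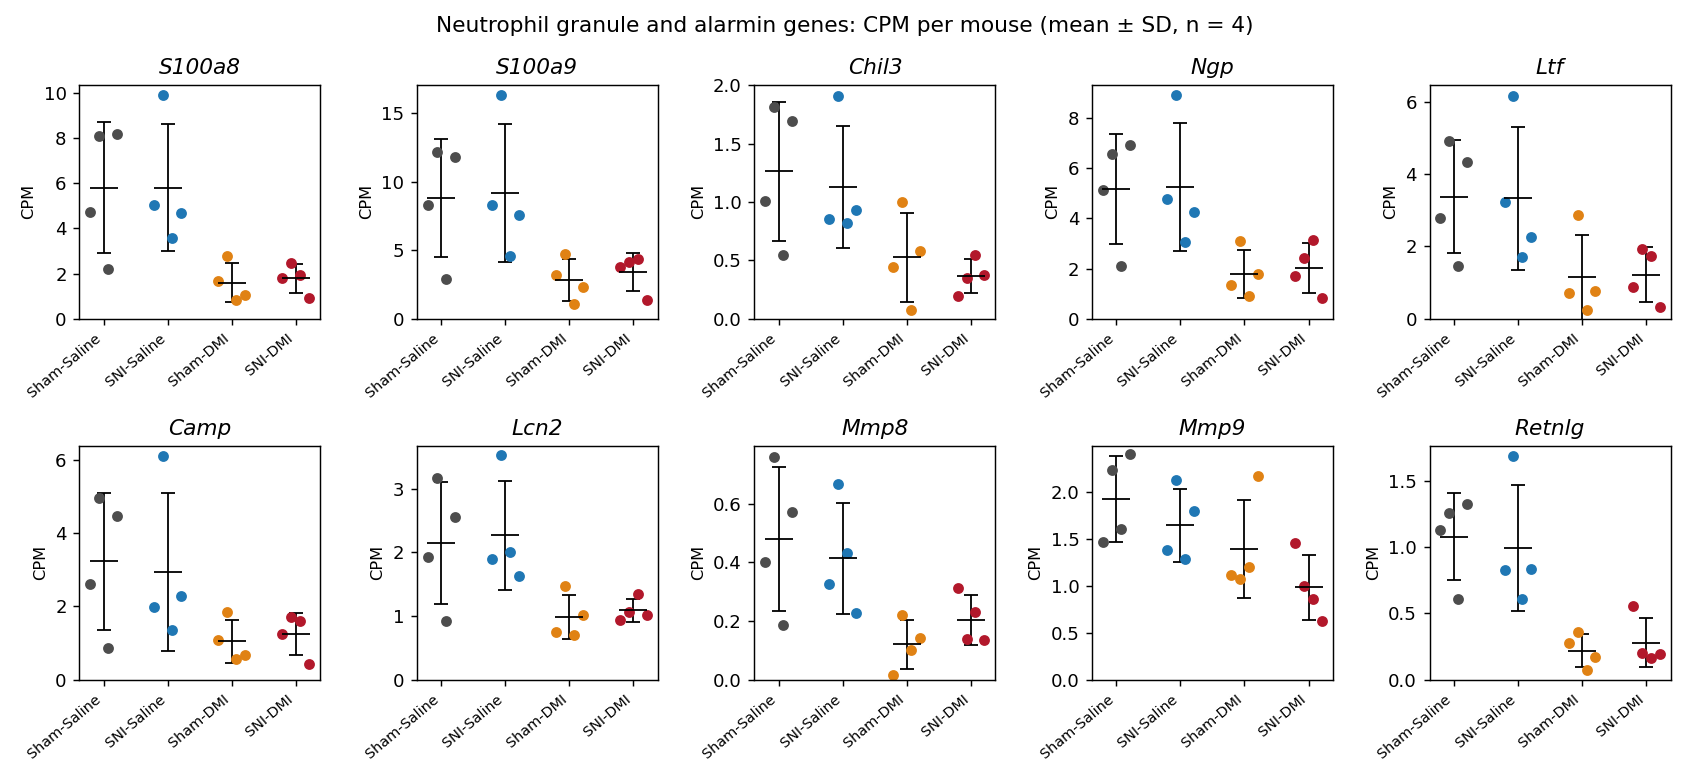
CPM of each of the 10 genes on a linear axis from 0, in 4 groups. Each point is 1 mouse, in the order of replicates 1 to 4, and the bar and whiskers are the mean ± SD (n = 4). The DMI groups lie low for each gene, with Mmp9 the least separated, and SNI-Saline replicate 2 is the highest SNI-Saline mouse in 10 of 10 panels.

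The alarmin genes were lower in both DMI groups. S100a8 stood at 4.71, 8.07, 2.21 and 8.19 CPM in Sham-Saline replicates 1 to 4, and at 5.05, 9.88, 3.58 and 4.67 CPM in SNI-Saline. With DMI, S100a8 was at 1.69, 2.76, 0.824 and 1.07 CPM in sham mice, and at 1.79, 2.48, 1.95 and 0.934 CPM in SNI mice. All 4 SNI-DMI mice were below all 4 SNI-Saline mice, and 3 of 4 Sham-DMI mice were below all Sham-Saline mice. S100a9 stood at 8.27, 12.2, 2.93 and 11.8 CPM in Sham-Saline and at 8.33, 16.3, 4.56 and 7.55 CPM in SNI-Saline. With DMI, S100a9 was at 3.16, 4.76, 1.07 and 2.29 CPM in sham mice and at 3.76, 4.16, 4.37 and 1.36 CPM in SNI mice. Both SNI groups were again apart, while the sham groups overlapped through Sham-Saline replicate 3. The reads on S100a9 per read on S100a8 stayed between 1.27 and 2.25 over the 16 mice (median 1.65), while S100a8 itself ranged from 0.824 to 9.88 CPM.

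The specific granule genes also had lower means in both DMI groups than in both saline groups. Ngp, which encodes neutrophilic granule protein, stood at 5.13, 6.57, 2.12 and 6.91 CPM in Sham-Saline and at 4.78, 8.92, 3.05 and 4.26 CPM in SNI-Saline. With DMI, Ngp was at 1.33, 3.11, 0.899 and 1.80 CPM in sham mice and at 1.69, 2.42, 3.13 and 0.844 CPM in SNI mice. In SNI mice the groups met only at their edges, where SNI-DMI replicate 3 (3.13 CPM) passed SNI-Saline replicate 3 (3.05 CPM). Ltf encodes the iron-binding protein lactoferrin, and its mean CPM under sham conditions was 3.37 ± 1.56 with saline and 1.15 ± 1.17 with DMI, and after SNI it was 3.34 ± 1.98 with saline and 1.22 ± 0.756 with DMI (SD, n = 4). Camp encodes the antimicrobial peptide precursor cathelicidin, with 3.24 ± 1.88, 1.05 ± 0.584, 2.94 ± 2.16 and 1.25 ± 0.577 CPM in the same order. The DMI and saline groups of Ltf and Camp overlapped under both surgeries. Lcn2, lipocalin 2, which binds bacterial iron carriers, went from 2.14 ± 0.961 to 0.982 ± 0.351 CPM between saline and DMI in sham mice, and from 2.27 ± 0.861 to 1.09 ± 0.181 CPM in SNI mice (SD, n = 4). The highest SNI-DMI mouse for Lcn2 (1.35 CPM) lay below the lowest SNI-Saline mouse (1.62 CPM).

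Chil3 and Retnlg encode secreted proteins of myeloid cells. Chil3, a chitinase-like lectin also known from alternatively activated macrophages, was at 1.01, 1.81, 0.545 and 1.69 CPM in Sham-Saline and at 0.851, 1.91, 0.819 and 0.932 CPM in SNI-Saline. With DMI, Chil3 was at 0.444, 1.0, 0.0749 and 0.583 CPM in sham mice and at 0.192, 0.352, 0.544 and 0.377 CPM in SNI mice. The SNI groups did not overlap and the sham groups did. Reads of Chil3 can be shared with its near-identical neighbour Chil4, which had a mean of 0.0224 CPM and 0 reads in 6 libraries. Retnlg, resistin-like gamma, was at 1.13, 1.26, 0.607 and 1.33 CPM in Sham-Saline and at 0.833, 1.69, 0.610 and 0.840 CPM in SNI-Saline. With DMI, Retnlg was at 0.273, 0.357, 0.0749 and 0.173 CPM in sham mice and at 0.557, 0.199, 0.165 and 0.196 CPM in SNI mice. Retnlg was the member whose DMI mice were below every saline mouse of the same surgery in both cases. The value of 0.0749 CPM in Sham-DMI replicate 3 stands for 3 reads for each of Chil3 and Retnlg (exact 95% Poisson interval 0.619 to 8.77 reads, for counting error only).

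The metalloproteinases differed from each other. Mmp8 spanned 0.187 to 0.762 CPM with saline and 0.0171 to 0.220 CPM with DMI in sham mice. In SNI mice it spanned 0.229 to 0.668 CPM with saline and 0.136 to 0.314 CPM with DMI. The lowest of these values, in Sham-DMI replicate 1, was a single read. Mmp9, gelatinase B, which macrophages and other cells also make, was at 1.46, 2.23, 1.60 and 2.40 CPM in Sham-Saline and at 1.38, 2.12, 1.28 and 1.79 CPM in SNI-Saline. With DMI, Mmp9 was at 1.11, 1.07, 1.20 and 2.17 CPM in sham mice and at 1.45, 0.995, 0.857 and 0.618 CPM in SNI mice. Its groups overlapped throughout, and Sham-DMI replicate 4 was as high as the upper saline mice.

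**Figure D2:**
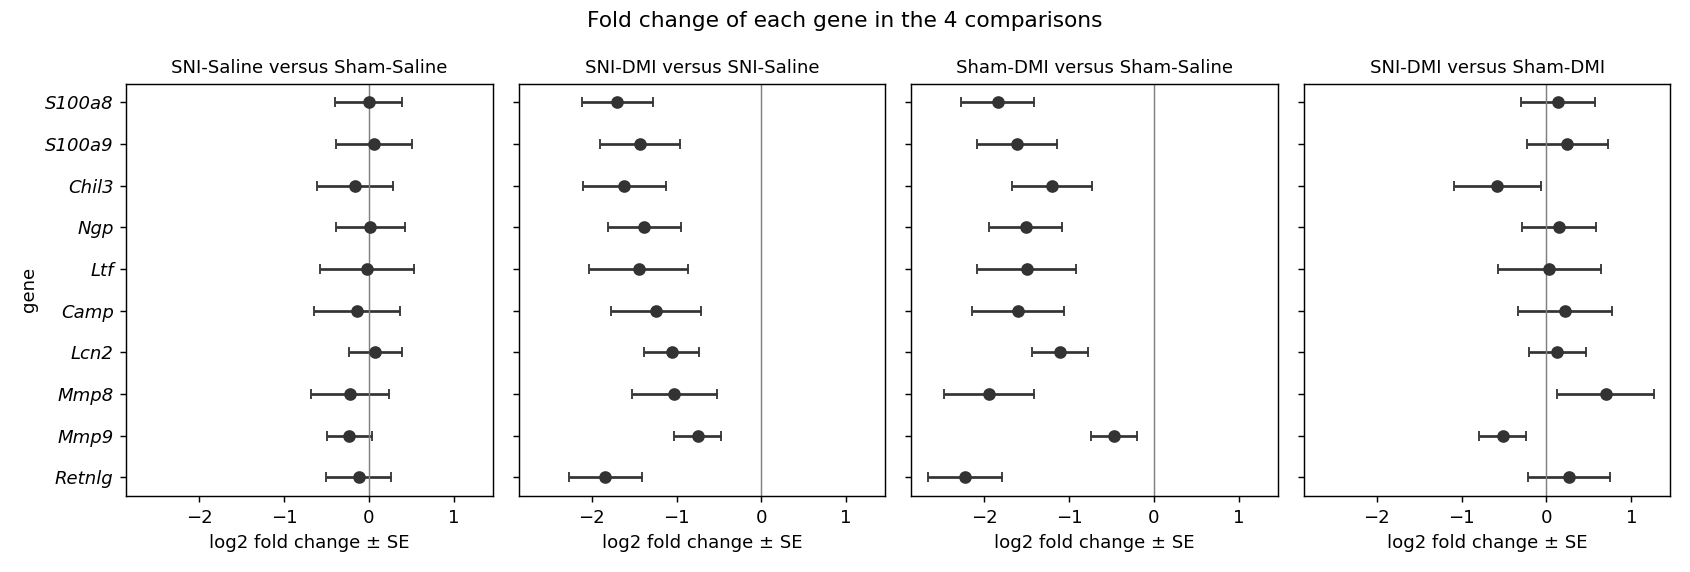
Log2 fold change with its SE (edgeR, 16 libraries) of each gene in 4 comparisons, with 0 marked. Points sit around 0 in both comparisons of SNI with sham mice, and left of 0 in both comparisons of DMI with saline mice, where Mmp9 is nearest to 0.

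The first comparison asked what injury alone does. Under saline, 7 of 10 genes were lower and 3 higher in SNI mice, and their log2 fold changes ran from -0.23 (Mmp9) to 0.08 (Lcn2), with a median of -0.07. The median of all genes was -0.001. None of the 10 was called at an adjusted p under 0.1, where 6.18% of all genes were called lower and 5.85% higher, and none was apart from sham mice, where 7.74% of all genes were lower without overlap. At an unadjusted p under 0.05 and a log2 fold change of at most -0.32 the count was also 0, beside 3.51% of all genes. DESeq2 called 0 of the 7 to which it gave an adjusted p. The intervals were wide, since the 4 mice of a group differed by several fold. The approximate 95% interval, taken from the SE, of S100a8 ran from -0.80 to 0.79 and that of Ltf from -1.13 to 1.09 on the log2 scale. The counts use the libraries on which the genes were chosen, so no p is given for them.

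In SNI mice, 10 of 10 genes were lower with DMI than with saline. The log2 fold changes ran from -1.84 ± 0.43 for Retnlg (SE), -1.70 ± 0.42 for S100a8 and -1.61 ± 0.49 for Chil3 to -0.75 ± 0.28 for Mmp9. Between them lay Ltf (-1.45), S100a9 (-1.43), Ngp (-1.38), Camp (-1.24), Lcn2 (-1.05) and Mmp8 (-1.02). The median was -1.40, beside -0.01 for all genes tested. The groups did not overlap for 5 of the 10 (S100a8, S100a9, Chil3, Lcn2 and Retnlg), beside 5.97% of all genes. An adjusted p under 0.1 was reached by 2 (S100a8 and Retnlg), beside 1.61% of all genes, and the study's nominal rule by 9, beside 3.80%. Neither gene passed when any of SNI-Saline replicates 1, 3 and 4 or of SNI-DMI replicates 1, 2 and 3 was absent, and with 1 library absent the count ran from 0 to 6. Of all genes, 38 passed without SNI-Saline replicate 4, and 0 without any other of these SNI libraries. With all libraries, 345 were called lower and 282 higher. The counts of the 10 genes restate how the genes were chosen. Without SNI-Saline replicate 2, the highest mouse of its group for 10 of 10 genes, the median was -0.97.

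In sham mice, 10 of 10 genes were lower with DMI and 9 of them were called, and this comparison shares no library with the former. Retnlg fell most (log2 fold change -2.22 ± 0.44, SE, edgeR adjusted p = 0.00398, n = 4 per group), with 4 of 4 Sham-DMI mice below every Sham-Saline mouse. Mmp8 (-1.94 ± 0.53, adjusted p = 0.0188), S100a8 (-1.84 ± 0.43, adjusted p = 0.00835) and S100a9 (-1.62 ± 0.47, adjusted p = 0.0261) were next in edgeR. The specific granule genes Camp (-1.60, adjusted p = 0.0499), Ngp (-1.51, adjusted p = 0.0238), Ltf (-1.50, adjusted p = 0.0893) and Lcn2 (-1.11, adjusted p = 0.0277) followed, with Chil3 at -1.20 (adjusted p = 0.0919). Mmp9 did not pass (-0.47 ± 0.27, adjusted p = 0.255). The count of 9 stood beside 11.9% of all genes called lower, and the nominal rule also gave 9, beside 7.57%. The median of the 10 was -1.55 and that of all genes -0.02. Only Retnlg was without overlap, beside 8.51% of all genes. It is not recorded whether these values entered the choice of the genes, so the calls are not independent evidence.

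Of the 9 calls, 6 (S100a8, S100a9, Ngp, Lcn2, Mmp8 and Retnlg) held when any 1 of the 16 libraries was left out. The call of Camp no longer passed when Sham-Saline replicate 2, Sham-Saline replicate 4 or any of Sham-DMI replicates 1, 3 and 4 was absent, with log2 fold changes of -1.59 to -1.32. The call of Ltf was lost without 1 of 9 libraries (-1.56 to -1.19), which were Sham-Saline replicates 1, 2 and 4, SNI-Saline replicate 1, Sham-DMI replicates 1, 3 and 4 and SNI-DMI replicates 1 and 3. The call of Chil3 was lost without 1 of 10 (-1.28 to -0.88), which were Sham-Saline replicates 1, 2 and 4, SNI-Saline replicates 1 and 4, Sham-DMI replicates 1, 3 and 4 and SNI-DMI replicates 3 and 4. Mmp9 passed without Sham-DMI replicate 4 (-0.76, edgeR adjusted p = 0.0658).

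Under DMI, injury again gave small differences. From Sham-DMI to SNI-DMI, 8 of 10 genes were higher and 2 lower, from -0.58 ± 0.51 for Chil3 to 0.70 ± 0.57 for Mmp8 (log2 fold change, SE), with a median of 0.15. In this comparison 0 of 10 were called in edgeR, beside 0.0281% of all genes called lower and 0.374% called higher. No gene was without overlap, beside 2.15% of all genes lower without it. The nominal rule gave 0 lower, beside 1.34% of all genes, and DESeq2 called 0 of the 9 to which it gave an adjusted p.

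Both DMI effects were set against each other as the difference between the log2 fold change in SNI mice and that in sham mice. It ran from -0.41 ± 0.68 for Chil3 to 0.92 ± 0.73 for Mmp8 (SE), with a median of 0.14. For S100a8 it was 0.14 ± 0.59, with an approximate 95% interval, taken from the SE, of -1.04 to 1.32. At this spread a difference of a fold of 2 between both effects was not detectable for most of the genes. Across all genes 0 of 21371 passed in edgeR, and 3.45% met the nominal rule.

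Other neutrophil genes were counted from lists chosen with earlier results known. Of the early granule list, Mpo, Elane, Prtn3 and Ms4a3 were tested and had 0 calls in any comparison. In sham mice 3 of 4 were higher with DMI and 1 lower, by small amounts for their spread. The log2 fold changes were 0.27 ± 0.76 for Elane, 0.04 ± 0.31 for Prtn3, 0.25 ± 0.13 for Ms4a3 and -0.32 ± 0.60 for Mpo (SE). Elane, neutrophil elastase, had a mean of 0.277 CPM, and Mpo, myeloperoxidase, 0.733 CPM. Of 15 tested genes of other granule and secreted proteins, 13 were lower and 2 higher in Sham-DMI than in Sham-Saline, where 53.3% of all genes were lower. Of the 15, 3 fell and 1 rose, beside 11.9% of all genes called lower and 11.6% called higher. Wfdc21, a protease inhibitor-like secreted protein, fell by 3.26 ± 0.74 (SE, edgeR adjusted p = 0.00767). It was very rare, with means of 0.218 CPM in Sham-Saline and 0.0193 CPM in Sham-DMI and 0 reads in 1 library. Ifitm6 fell by 1.45 (edgeR adjusted p = 0.0410) and the integrin subunit Itgam fell by 0.72 (adjusted p = 0.0388). Adam8, a protease that injured neurons and macrophages also make, rose by 0.27 (adjusted p = 0.0798). In SNI mice 12 of the 15 were lower with DMI, beside 51.0% of all genes. There Wfdc21 passed (-3.29, edgeR adjusted p = 0.0631), beside 1.61% of all genes called lower.

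The list of surface and cytosol genes had 9 tested members. In Sham-DMI 9 of 9 were lower, beside 53.3% of all genes, with a median of -0.76, and 3 passed, beside the 11.9% of all genes. Il1r2 (-0.003 ± 0.268), Mrgpra2b (-0.047 ± 0.221) and Mrgpra2a (-0.052 ± 0.192) hardly changed (log2 fold change, SE). Csf3r, the receptor for the growth factor G-CSF, fell by 1.06 (edgeR adjusted p = 0.0238). Padi4, which citrullinates histones, fell by 0.76 (adjusted p = 0.0661). In SNI mice 7 of 9 were lower with DMI, beside 51.0% of all genes. There Padi4 passed (-0.94, edgeR adjusted p = 0.0973), beside 1.61% of all genes called lower. Ly6g, a defining surface marker of mouse neutrophils, did not pass in either (log2 fold change -1.56 and -1.48), at a mean of 0.129 CPM over 16 mice and 0 reads in 1. Of the 6 tested transcription factors of granulocytes, such as Cebpe and Cebpa, 0 passed with DMI under either surgery.

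Genes around the neutrophil products gave mixed values. Of 7 ligands that draw or make neutrophils only 2 were tested, and Cxcl12, a stromal chemokine, fell by 0.26 in Sham-DMI (edgeR adjusted p = 0.0868). Cxcl3 and Il17a had 0 reads in 16 libraries. Among 11 tested receptors and inhibitors of the encoded proteins, Tlr4, the alarmin receptor, fell by 0.48 (adjusted p = 0.0787), Cd36 fell by 0.73 (adjusted p = 0.0446) and Lrp1 fell by 0.26 (adjusted p = 0.0853) in Sham-DMI. These 3 of 11 and Cxcl12 stood beside 11.9% of all genes called lower. Bsg, which encodes basigin, rose by 0.21 (edgeR adjusted p = 0.00822), beside 11.6% of all genes called higher.

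The other S100 genes, which sensory neurons and glia express, were mostly higher where S100a8 and S100a9 were lower. In Sham-DMI 9 of 9 tested were higher than in Sham-Saline, and 7 passed (S100a1, S100a4, S100a6, S100a10, S100a13, S100a16 and S100b), beside 11.6% of all genes called higher. S100a6 rose by 0.40 (edgeR adjusted p = 0.00188) and S100a4 by 0.68 (adjusted p = 0.00561). In SNI mice 8 of 9 were higher with DMI, 1 was lower (S100b, log2 fold change -0.02) and only S100a6 passed (0.25, edgeR adjusted p = 0.0784), beside 1.32% of all genes called higher. With injury under saline 9 of 9 were higher and 7 passed, beside 5.85% of all genes. Of the other metalloproteinase genes, Mmp12 of macrophages rose with injury (1.81, edgeR adjusted p = 0.0211), and Mmp14, a membrane-bound enzyme, was higher with DMI in SNI mice (0.34, edgeR adjusted p = 0.0622). The 4 tested paralogs of Chil3 and Retnlg had 0 calls in any comparison.

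The 10 genes varied much more between mice of a group than most genes. Their biological coefficient of variation, the spread between mice beyond counting error, had a median of 0.421, from 0.258 for Mmp9 to 0.572 for Ltf, beside 0.115 for all genes. The same mice were high or low for most of them. SNI-Saline replicate 2 was the highest of its group for 10 of 10 genes, and Sham-DMI replicate 2 for 9. Sham-Saline replicate 3 was the lowest of its group for 9, and Sham-DMI replicate 3 and SNI-Saline replicate 3 were the lowest of theirs for 8 each.

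Summed over the 10 genes, the level was 29.4, 46.0, 13.5 and 44.3 CPM in Sham-Saline and 28.7, 57.3, 19.4 and 26.4 CPM in SNI-Saline. With DMI, the sum was 10.6, 19.5, 5.77 and 10.7 CPM in sham mice and 12.8, 15.5, 15.9 and 6.24 CPM in SNI mice. On the sum, SNI-DMI mice were below all SNI-Saline mice, and Sham-Saline replicate 3 lay within the range of Sham-DMI.

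Across the 45 pairs of genes, Pearson's r of log2 CPM over 16 mice had a median of 0.856, from 0.532 for Chil3 with Mmp9 to 0.975. After each group's mean was taken out, so that only differences between mice of 1 group remained, the median was 0.721. The closest centred pair was S100a8 with Camp (0.979). A gene of the set and a gene outside it had a median r of 0.033, or 0.016 when centred. Mmp9 was the least like the rest, with a centred r of 0.168 to 0.453 to the other genes. These are descriptions over mice that share groups and library preparation.

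**Figure D3:**
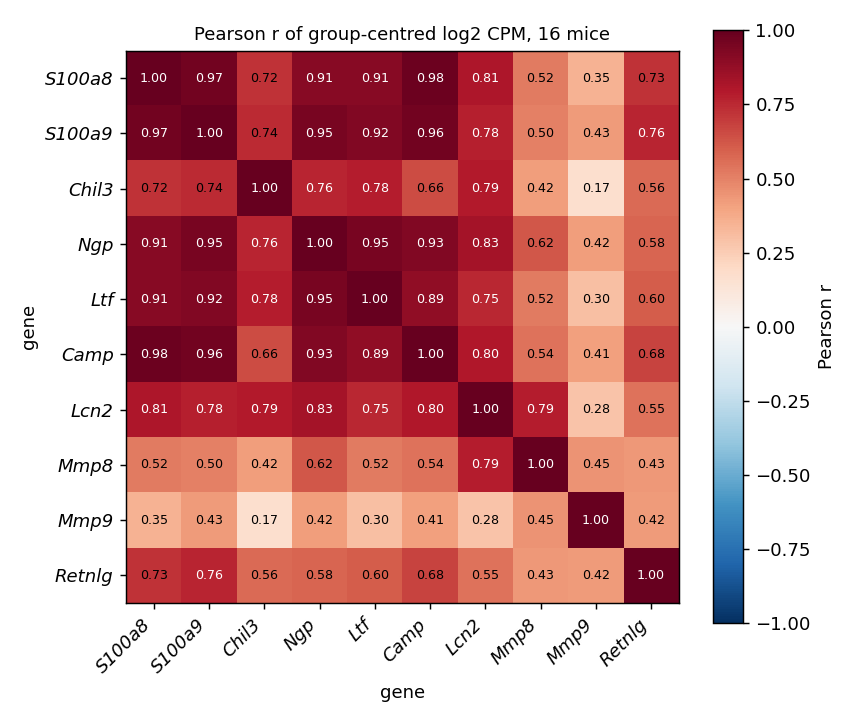
Pearson's r between each 2 of the 10 genes, over 16 mice, of log2 CPM with the group means taken out. S100a8, S100a9, Ngp, Ltf and Camp form a block of high r, and the row of Mmp9 is the palest, with values from 0.17 to 0.45.

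The genes outside the set with the most similar pattern were named by Pearson's r with the mean of the 10 genes over 16 mice. Among the closest 12 were Ccdc88c (0.931), Wfdc21 (0.893), Ifitm6 (0.892), Slc4a1 (0.884), Arglu1 (0.884), Btnl10 (0.875), Ermap (0.868), Ctse (0.855), Il18rap (0.851), Apol11b (0.850) and Tspo2 (0.848). Slc4a1 encodes the anion exchanger band 3 of the red cell membrane, and Ermap is a red cell membrane protein too. Ccdc88c stood at 2.65 ± 0.508 CPM with saline and 1.68 ± 0.238 CPM with DMI in sham mice, and at 2.43 ± 0.549 and 1.68 ± 0.0936 CPM in SNI mice (SD, n = 4). Arglu1, the most abundant of the 12, went from a mean of 110 and 109 CPM with saline to 96.7 and 97.5 CPM with DMI. With the group means taken out, 5 of the 12 remained among the closest 12, with Slc4a1, Btnl10, Ctse and Tspo2 among them. The genes that joined them were Upk1a (centred r 0.899), Mpo (0.880), Prtn3 (0.876), Hba-a2 of the red cell list (0.865), Prg2 (0.856), Hemgn (0.849) and Cldn13 (0.846).

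Markers of other blood cells moved with the set in part. Of 9 red cell genes, 9 were lower with DMI under each surgery, beside 53.3% of all genes in sham and 51.0% in SNI mice. Of the 9, 0 passed in edgeR. Their summed level in sham mice was 36.2 to 132 CPM with saline and 28.2 to 113 CPM with DMI. In SNI mice it was 65.3 to 123 CPM with saline and 33.3 to 90.0 CPM with DMI. Sham-DMI replicate 2 combined 113 CPM of red cell genes, above 3 of the 4 Sham-Saline mice, with 19.5 CPM of the 10 neutrophil genes, below 3 of these 4. Within each group the same mouse was lowest on both sums, replicate 3 in Sham-Saline, SNI-Saline and Sham-DMI and replicate 4 in SNI-DMI. Replicate 2 was highest on both sums in SNI-Saline and Sham-DMI. In Sham-Saline and SNI-DMI the highest mouse differed between the sums. The 12 monocyte and macrophage genes summed to 107 to 122 CPM with saline and 83.9 to 113 CPM with DMI in sham mice. After SNI they summed to 130 to 218 CPM with saline and 104 to 192 CPM with DMI, and SNI-Saline replicate 2 was the highest of all. In Sham-DMI 12 of 12 of these were lower, beside 53.3% of all genes, and 3 passed, beside 11.9%, with Ccr2 of recruited monocytes at -0.52 (edgeR adjusted p = 0.0493), Mrc1 at -0.40 (adjusted p = 0.0734) and Lyve1 at -0.31 (adjusted p = 0.0968). In SNI mice 11 of 12 were lower with DMI, beside 51.0% of all genes. There Ccr2 passed (-0.63, edgeR adjusted p = 0.0904), beside 1.61% of all genes called lower.

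Of the B-lineage list, 5 of 12 genes were tested and 3 fell in Sham-DMI, beside 11.9% of all genes. Pax5, a transcription factor of B cells, fell by 1.28 (edgeR adjusted p = 0.00743), and it also fell with injury under saline (-1.08, adjusted p = 0.0366). Ebf1, which other cells also express and which stood at a mean of 158 CPM, fell by 0.15 (adjusted p = 0.0944). T and natural killer cell genes summed to 1.93 to 3.25 CPM in Sham-Saline and 1.30 to 1.88 in Sham-DMI, with 0 of 7 called. The summed platelet genes overlapped in all groups (14.7 to 20.6 CPM). No listed red cell, monocyte, T cell or platelet gene was at 0 in all mice of a group, while Vpreb2 and Rag2 of B cell precursors had at most 1 read in any library. The part of red cells, monocytes and lymphocytes in the neutrophil values was not tested.

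**Figure D4:**
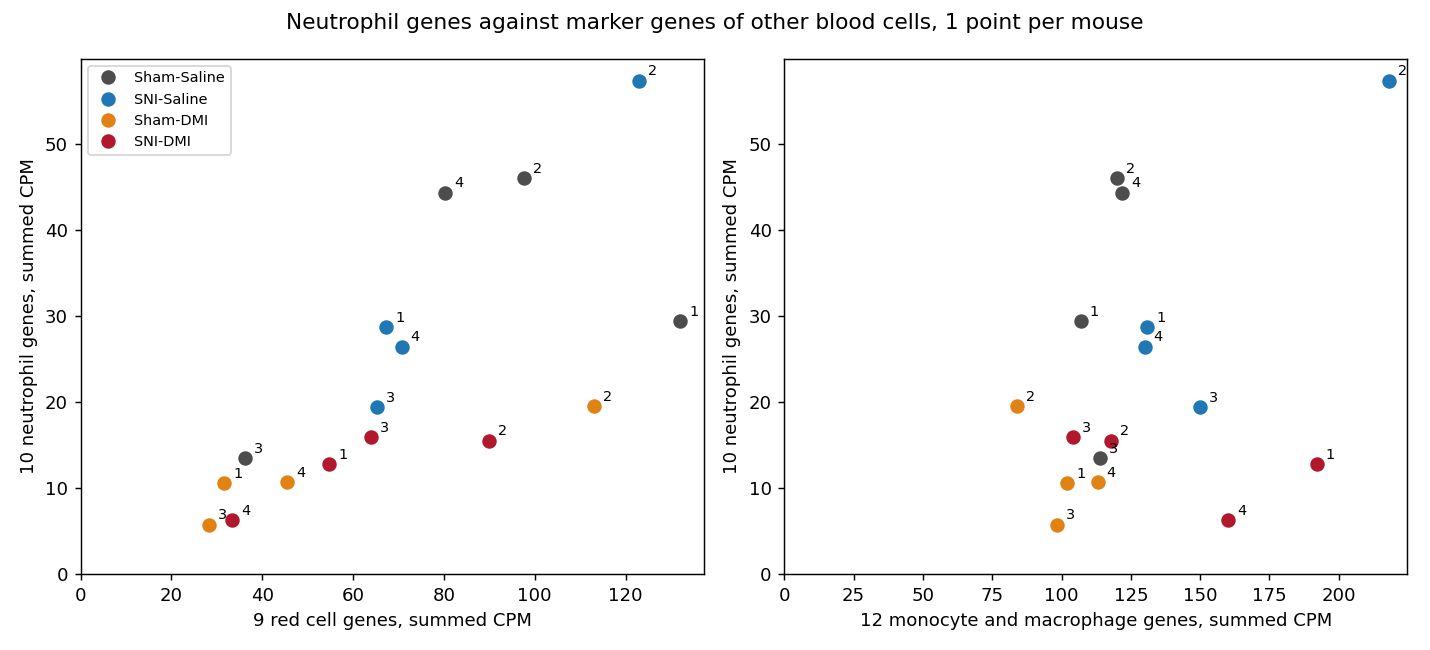
Summed CPM of the 10 neutrophil genes (vertical axis) against the summed CPM of 9 red cell genes (left) and of 12 monocyte and macrophage genes (right), with 1 point per mouse, the replicate number beside it and the group as color. Saline mice reach 57.3 CPM on the vertical axis and DMI mice 19.5 CPM, at red cell sums up to 132 and 113 CPM.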

How the data were processed

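Total RNA of lumbar DRGs was made into libraries with the Illumina Stranded mRNA kit and sequenced by the authors as paired reads of 50 bases. The authors used the NGS-Data-Charmer pipeline and the mm10 genome, and deposited whole-number counts per Ensembl gene, 1 mouse per library, without normalization. The submitters' processing notes name HISAT2, HTSeq and DESeq2. The annotation release and the strand setting are not given in the sources used here. The 5 closing lines of reads not assigned to a gene were left out. Symbols and coordinates come from GENCODE M21 (52489 of 52636 genes matched).

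Genes were kept by filterByExpr (21371), scaled by TMM and fitted in edgeR 4.0.16 by quasi-likelihood over 16 libraries with 1 coefficient per group. Benjamini-Hochberg adjusted p under 0.1 over all genes tested was a call. The study's nominal rule (p under 0.05, absolute log2 fold change of at least 0.32) was counted beside it. CPM is the count per 1000000 of the TMM-scaled total. A prior count of 2 was used for log2 CPM in correlations. Intervals of counts cover counting error only. The fit was tested on simulated data. Reads on genes were 41194238 to 73920332 per library. The biological coefficient of variation had a median of 0.115 over all genes.

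The genes and lists were chosen with earlier results of these data known. By the naming rule, all 10 genes, the list genes with a call (or else up to 4 of the highest mean CPM) and the 12 most similar genes are named, except 3 genes that are not reported here. Alternatives were other filters, scalings and tests (DESeq2 1.42.0), single comparisons, a replicate block, and each library left out. Leaving out all 4 replicates 2 and removing GC content and length trends were added after seeing the data.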

Additional observations from a re-analysis of the deposited data

Results flagged for a closer look

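Of 40 groups of 4 mice (10 genes in 4 groups), 3 held a mouse far from the other 3 by Dixon's test at the 95% level, and chance flags about 1 in 20 groups. Chil3 in SNI-Saline replicate 2 was at 1.91 CPM, with a gap of 0.896 of the range, and this mouse was the highest of its group for 10 of 10 genes. Mmp9 in Sham-DMI replicate 4 was at 2.17 CPM, with a gap of 0.884. Without that mouse Mmp9 passed in Sham-DMI versus Sham-Saline (log2 fold change -0.76). Retnlg in SNI-DMI replicate 1 was at 0.557 CPM, with a gap of 0.913, still below the lowest SNI-Saline mouse (0.610 CPM).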

How the results depend on the processing

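No fold change of a gene past the threshold changed sign under any alternative run. In SNI-DMI versus SNI-Saline the count of genes with an adjusted p under 0.1 was the least stable: 2 in the report, 6 without a filter on low counts, 6 with edgeR on the 8 libraries of the comparison, 0 with all 4 replicates 2 left out and 0 with GC content and length trends removed. It was 3 in DESeq2, which gave an adjusted p to 5 of the 10 and none to Chil3, Lcn2, Mmp8, Mmp9 and Retnlg. With 1 library left out it ran from 0 to 6. Leaving out any of SNI-Saline replicates 1, 3 and 4 and of SNI-DMI replicates 1, 2 and 3 gave 0. Leaving out SNI-Saline replicate 2 gave 1, as did SNI-DMI replicate 4. Leaving out replicate 3 of either sham group gave 3, Sham-DMI replicate 2 gave 5 and Sham-DMI replicate 1 gave 6. The cause was not tested. The median log2 fold change stayed between -1.62 and -0.97 with 1 library left out.

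In Sham-DMI versus Sham-Saline the count of 9 was 7 with edgeR on the 8 libraries and 7 with GC content and length trends removed, where Ltf and Chil3 were lost. It was 6 with at least 10 counts in every library, a filter that 7 of the genes passed. With 1 library left out it ran from 6 to 9 and the median from -2.0 to -1.32. Over the single genes of this comparison and all alternatives, 218 values kept their side of the threshold, 28 lost the call and 1 gained it. In the other comparisons the counts stayed at 0, with medians of -0.43 to 0.15 (SNI-Saline versus Sham-Saline), -0.02 to 0.59 (SNI-DMI versus Sham-DMI) and -0.07 to 0.56 (difference of both DMI effects). Of the 12 most similar genes, 5 were shared after centring on group means, and 8 with Spearman's rho.

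Replicate numbers were not used to pair the mice in the main fit, and the values below cannot decide whether they do. Over 24 pairs of same-numbered libraries the r of deviations ran from -0.081 to 0.184, 5 were over 0.1, and 7 of 16 libraries correlated best with their own number. With the replicate block, DMI against saline gave a count of 9 and a median of -1.65 in sham mice, and a count of 2 and a median of -1.25 in SNI mice. SNI against sham gave a count of 0 under both treatments, with medians of -0.13 under saline and 0.30 under DMI. The median difference of both DMI effects was 0.37.

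Mmp8, Chil3 and Retnlg had as few as 1 to 3 reads in a library. Their biological coefficients of variation (0.43, 0.457 and 0.381) lay within the range of the 10 genes, 0.258 to 0.572. Whether depth or the spread between mice limited a gene more was not tested.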
